A study of Mus musculus with 35 samples.

Results

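Gene expression in the cervical spinal cord of SCA7 mice was compared with that of WT mice at 9 weeks of age, the last age the study sampled. The comparison holds 10 of the 35 RNA-seq libraries of the series, chosen by their tissue, age and genotype labels: 5 from WT mice and 5 from SCA7 mice, each library from 1 mouse. The SCA7 mice carry a knock-in allele of *Atxn7*, labelled 266Q, beside an allele labelled 5Q, so that the expanded protein is made from the mouse gene's own promoter in every cell that uses it. The WT mice were littermates, the labels give no treatment, and the methods name segments of the neck that hold the phrenic motor neurons as the tissue taken. The rest of the series covers the medulla of the same mice and younger ages.

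SCA7 is an inherited ataxia in which a CAG repeat in *Atxn7* lengthens a glutamine tract in ataxin-7, a subunit of the SAGA coactivator, which modifies histones at promoters. The cervical cord holds the motor neurons of the diaphragm in grey matter, surrounded by white matter in which oligodendrocytes wrap axons in myelin. Astrocytes of both regions take up glutamate, glycine and potassium, and their filament protein is encoded by *Gfap*.

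Libraries fell into separate depth classes in both genotypes. WT replicates 1 and 5 and SCA7 replicates 4 and 5 had totals from 28969003 to 35141477 counts (deep), and the 6 others, all under 1000000, from 112060 to 160319 counts (shallow), a ratio of 314 between the largest and the smallest total. Genes with at least 10 counts numbered 17286 to 18211 in a deep library and 1926 to 3366 in a shallow one, and a count of 0 allows up to 0.104 CPM (counts scaled to a library of 1000000) in the deep and up to 26.8 CPM in the shallow libraries, for counting error only. Depth classes themselves differed in 668 of 19263 genes. WT replicate 4 stood apart from its group, with 36.1% of its counts from the mitochondrial genome against 4.67% to 25.1% in the other WT and 4.03% to 16.1% in the SCA7 libraries. *Xist* was counted in all 10 libraries, between 31 and 17233 times. *Ddx3y*, a gene of the Y chromosome, had 0 counts in each deep library and 0 to 3 in the shallow ones, while the methods state that both sexes were used. The neck and brachial Hox genes summed to between 263 and 884 CPM in every library and the lumbar Hox genes to at most 7.27 CPM.

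Raw counts were compared by edgeR's quasi-likelihood method, which called 974 of 19263 genes (5.06%), against 192 by DESeq2 (0.997%). All adjusted P values below come from edgeR with Benjamini-Hochberg adjustment, unless another tool is named, and log2 fold changes are SCA7 over WT with their standard error. Levels are CPM after TMM normalization, listed from replicate 1 to 5, and are compared between libraries and not between genes, since they are not corrected for gene length. A gene was called at an adjusted P under 0.05. Genes that averaged 10 counts or more over the 6 shallow libraries are termed well counted here, and all others sparse, since a shallow library says little about them. P values measure the spread between these libraries.

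SCA7 cervical cord had lower levels of myelin and astrocyte transcripts and higher levels of a small group led by an RNA polymerase II subunit and a pair of cold-inducible RNA-binding proteins. Of 2411 well counted genes, 99 were called (4.11%), 87 lower (3.61%) and 12 higher (0.498%). In 64 of the lower and 10 of the higher calls, the levels of all 5 SCA7 libraries lay on one side of all 5 WT libraries, and 6.06% of all well counted genes had genotypes that did not overlap in this way (2.38% of all genes tested). The leading well counted genes below were chosen from these calls by smallest adjusted P, so their lack of overlap follows from the choice. The lower calls fell to 54 without SCA7 replicate 4 and to 40 without SCA7 replicate 5, and rose to 140 without WT replicate 5. The higher calls fell to 2 without SCA7 replicate 5, to 6 without SCA7 replicate 2 or SCA7 replicate 4 and to 7 without WT replicate 2 or SCA7 replicate 3, and rose to 59 without WT replicate 5. TMM factors were 0.896 ± 0.155 (SD, n = 5) in WT and 1.13 ± 0.0912 (SD, n = 5) in SCA7 libraries (exact permutation test, two-sided, P = 0.0317, adjusted over 4 library features P = 0.111). With library totals in place of TMM factors the median of all genes moved from -0.02 to 0.28, and 25 well counted genes were called lower and 33 higher, so changes are relative to the median gene.

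**Figure D1:**
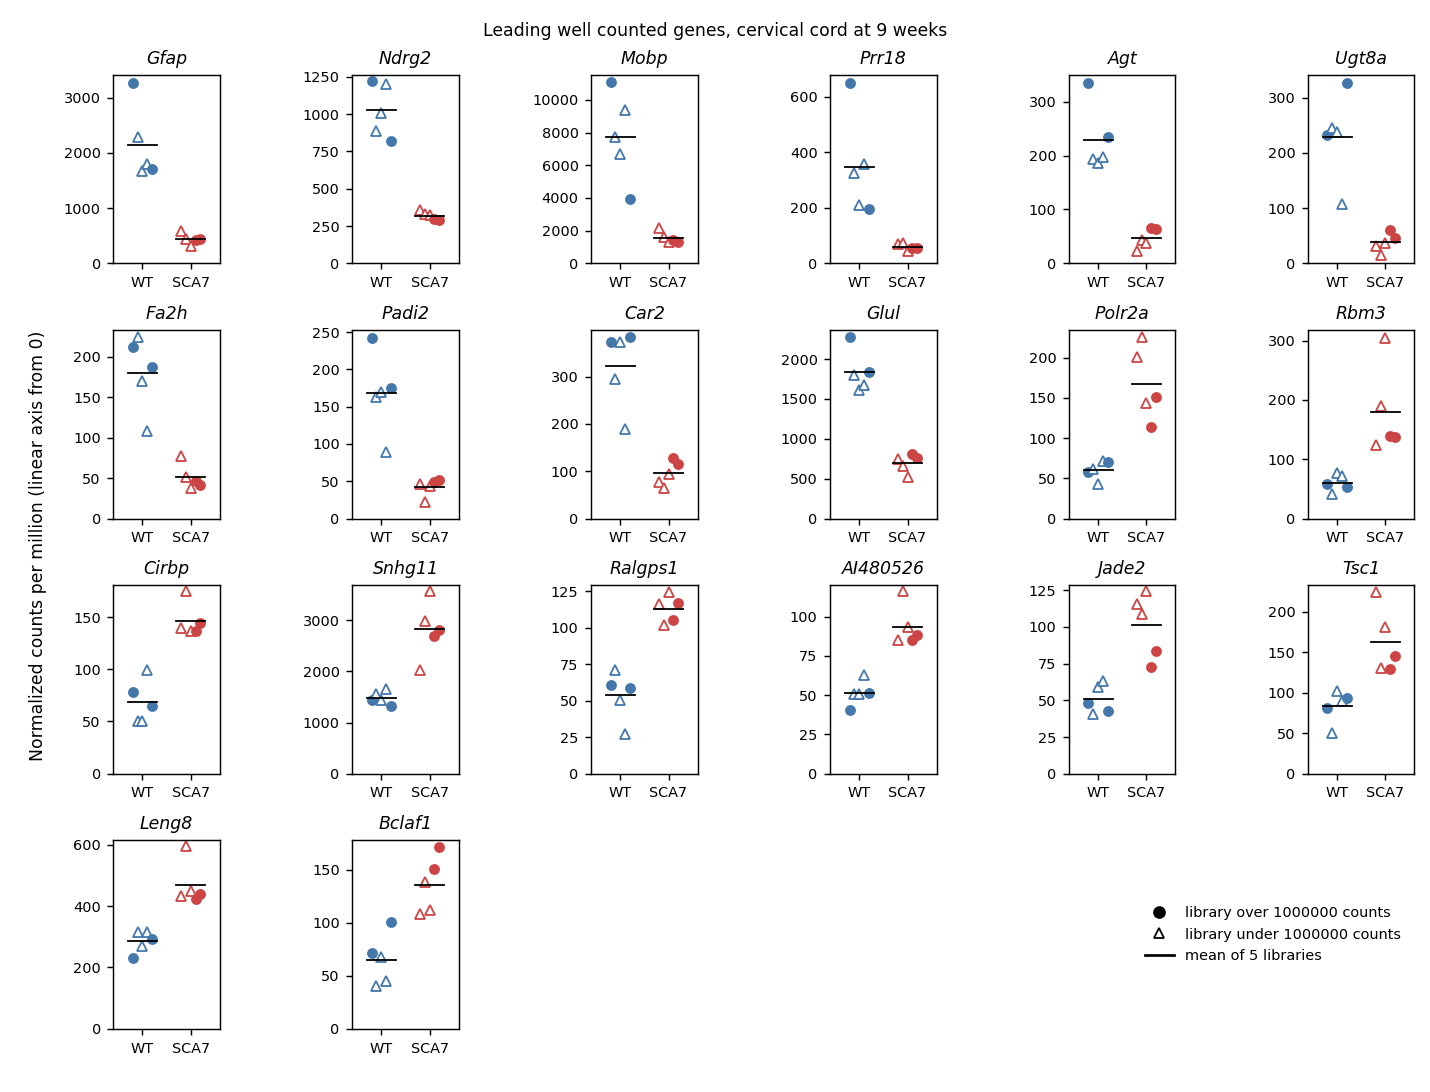
Normalized CPM (linear axis from 0) of 10 lower and 10 higher leading well counted genes in each library of the cervical cord at 9 weeks. Circles are deep and triangles shallow libraries, lines are means of 5 libraries, and in all 20 panels the genotypes do not overlap, as the choice of leading genes required.

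Structural myelin genes were lower in SCA7 mice almost without exception. Of the 11 genes on the list, 10 were called lower and none higher, with a median log2 fold change of -1.26 against -0.02 over all 19263 genes tested, of which 3.54% were called lower. *Mobp*, a protein of compact myelin, stood at 11069, 7720.1, 6713, 9361 and 3931 CPM in WT and 2181, 1586, 1326, 1422 and 1335 CPM in SCA7 libraries (-2.31 ± 0.29, adjusted P = 0.00048). No SCA7 library reached the lowest WT library, WT replicate 5.

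*Cldn11*, the claudin of myelin tight junctions, was at 395 to 773 CPM in WT and 225 to 317 CPM in SCA7 libraries (-1.34 ± 0.22, adjusted P = 0.00223). *Ermn*, a cytoskeletal protein of mature oligodendrocytes, was at 198 to 357 CPM against 80.9 to 150.1 CPM (-1.26 ± 0.24, adjusted P = 0.00621). The member not called was *Mbp*, which encodes myelin basic protein. It was measured at 43815, 74719, 50853, 60972 and 13758 CPM in WT and 29418, 25581, 15990.1, 8372 and 9082 CPM in SCA7 libraries (-1.47 ± 0.45, adjusted P = 0.0733). In each genotype the shallow libraries were higher than the deep ones, and WT replicate 5, a deep library, fell among the SCA7 values. Within each depth class all WT values were above all SCA7 values.

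Genes that make the lipids of myelin followed the same direction. Of 9 listed, 6 were called lower and none higher (median -1.03). *Ugt8a*, which makes galactosylceramide, had 232, 244, 237, 108 and 326 CPM in WT and 30.9, 14.5, 37.3, 60.5 and 46.3 CPM in SCA7 libraries (-2.43 ± 0.32, adjusted P = 0.000522). *Fa2h*, which hydroxylates the fatty acids of these lipids, had 212, 224, 169.5, 108 and 187 CPM in WT and 77.3, 50.9, 37.3, 46.8 and 41.6 CPM in SCA7 libraries (-1.92 ± 0.26, adjusted P = 0.000651). The genotypes did not overlap for either enzyme, as the choice of leading genes required, and the lowest WT value of both was in WT replicate 4. *Pllp* (plasmolipin, -0.98, adjusted P = 0.0248), *Gal3st1* (the sulfatide sulfotransferase, -1.30, adjusted P = 0.0328) and *Scd2* (a fatty acid desaturase, -1.12, adjusted P = 0.0438) were also called. These 3 calls were not past the threshold when SCA7 replicate 3, 4 or 5 was left out, nor for *Gal3st1* on leaving out WT replicate 1 or 3 and for *Scd2* on leaving out WT replicate 2 or 3, or SCA7 replicate 1 or 2 (adjusted P from 0.0553 to 0.202 over all of these).

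Other genes of mature oligodendrocytes numbered 23, of which 13 were called lower and none higher (median -1.16). *Prr18*, a gene expressed in oligodendrocytes, had 650.1, 325, 212, 359 and 194 CPM in WT and 69.6, 72.7, 43.6, 55.9 and 55.8 CPM in SCA7 libraries (-2.60 ± 0.33, adjusted P = 0.00048). *Padi2*, which converts arginine of myelin basic protein to citrulline, had 242, 163, 169.5, 89.8 and 175 CPM against 46.4, 21.8, 43.6, 48.4 and 51.4 CPM (-1.95 ± 0.28, adjusted P = 0.000923). *Car2*, carbonic anhydrase 2, had 373, 295, 373, 189 and 383 CPM against 77.3, 65.5, 93.4, 128 and 116 CPM (-1.69 ± 0.25, adjusted P = 0.00135). All 3 genes had separate genotypes, as the choice of leading genes required. *Plekhb1* was not called, at 1154 to 2751 CPM in WT and 855 to 1585 CPM in SCA7 libraries (-0.81, adjusted P = 0.102).

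Few genes of the transcription factor and precursor lists of the lineage were called, and most of them were sparse. Well counted were 3 of 10 transcription factors, 1 of 8 precursor and 1 of 7 committed precursor genes, so changes in the others were hard to detect. The transcription factor list had a median of -0.59 and the committed precursor list -0.96. Of 10 oligodendrocyte transcription factors 1 was called, *Sox10*, which drives myelin genes, at 180.1, 183, 144, 144 and 127 CPM in WT and 69.6, 80.01, 68.5, 73.2 and 81.6 CPM in SCA7 libraries (-1.04 ± 0.21, adjusted P = 0.00806). The call of *Sox10* was lost with library totals (adjusted P = 0.139), in the shallow libraries alone (0.138) and after thinning counts to the smallest total (0.0723). *Olig1* also had separate genotypes, 229 to 353 CPM against 131 to 191 CPM, with an adjusted P of 0.0507 (-0.74). Of 8 genes of oligodendrocyte precursors 1 was called, *C1ql1* (-1.82, adjusted P = 0.0454), and the median of the list was -0.37. The call of *C1ql1* ended on leaving out WT replicate 3, or SCA7 replicate 1, 4 or 5 (adjusted P up to 0.272). Of 7 genes of committed precursors *Gpr17*, a receptor of that stage, was called (-2.14, adjusted P = 0.0263), and lost without WT replicate 1 or SCA7 replicate 4 or 5 (adjusted P up to 0.122), while *Bcas1* was at -0.96 (adjusted P = 0.0823).

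The promoters of 4 leading genes are printed because they stand for the groups that moved: a myelin gene and an astrocyte gene that were lower, and the polymerase subunit and a cold-inducible gene that were higher. Sequences are from RefSeq (GRCm38.p6), run 5′ to 3′ on the gene's strand and cover 250 bases before to 50 after the annotated start. Capitals mark ACAAAG or its reverse complement CTTTGT, the core that SOX factors such as the product of *Sox10* bind. The *Mobp* promoter lies at chr9:120149492-120149791 (plus strand), that of *Gfap* at chr11:102897151-102897450 (minus strand), that of *Polr2a* at chr11:69758584-69758883 (minus strand) and the first of 2 entries of *Cirbp* at chr10:80167589-80167888 (plus strand).
Mobp: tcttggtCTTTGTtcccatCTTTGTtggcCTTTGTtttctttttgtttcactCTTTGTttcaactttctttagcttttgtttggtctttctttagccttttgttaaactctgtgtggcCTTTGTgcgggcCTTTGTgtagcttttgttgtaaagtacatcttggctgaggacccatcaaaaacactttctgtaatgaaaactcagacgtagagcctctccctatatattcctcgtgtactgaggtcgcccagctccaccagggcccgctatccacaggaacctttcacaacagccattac
Gfap: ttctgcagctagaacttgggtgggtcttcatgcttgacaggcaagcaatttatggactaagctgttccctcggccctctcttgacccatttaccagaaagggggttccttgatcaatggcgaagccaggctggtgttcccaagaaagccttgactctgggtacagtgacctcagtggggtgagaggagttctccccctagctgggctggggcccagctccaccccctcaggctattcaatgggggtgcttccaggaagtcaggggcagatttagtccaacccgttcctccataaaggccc
Polr2a: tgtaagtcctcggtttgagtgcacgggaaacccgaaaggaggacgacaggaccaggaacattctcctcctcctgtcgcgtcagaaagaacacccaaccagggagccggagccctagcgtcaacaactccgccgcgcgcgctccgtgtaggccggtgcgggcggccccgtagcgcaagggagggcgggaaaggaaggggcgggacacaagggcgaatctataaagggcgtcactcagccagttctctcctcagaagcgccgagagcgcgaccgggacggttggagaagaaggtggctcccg
Cirbp: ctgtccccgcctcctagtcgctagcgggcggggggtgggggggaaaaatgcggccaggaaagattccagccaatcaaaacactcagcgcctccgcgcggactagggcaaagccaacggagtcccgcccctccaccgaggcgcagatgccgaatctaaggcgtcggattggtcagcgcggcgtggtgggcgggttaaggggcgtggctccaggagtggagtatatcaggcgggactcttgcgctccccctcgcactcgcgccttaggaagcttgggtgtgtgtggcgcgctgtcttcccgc

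The core occurred 6 times in the *Mobp* window and not in the other 3 windows. Of the 22 leading genes, 15 had an entry, with 20 promoters, and 3 promoters held the core (*Mobp*, *Prr18* and *Bclaf1*), where 18.7% of all 32851 promoters of this length held it at least once on either strand. The heat shock element GAANNTTC, found in 7.86% of all promoters, occurred once among the leading genes, in *Polr2a*. The palindromic glucocorticoid response element (0.475% of all promoters), the full palindromic NFI site (0.0365%) and the clock E-box CACGTG (7.15%) had no match in these 20 windows. No binding was measured in these samples, and a match is only a description of the letters.

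Astrocyte genes called in the cervical cord were all lower. Of 23 genes tested, 11 were called lower and none higher (median -0.91). *Gfap* had 3271, 2289, 1669.7, 1806 and 1713 CPM in WT and 580.0, 444, 317, 431 and 441 CPM in SCA7 libraries, with WT replicate 1 highest and a wide gap between the genotypes (-2.28 ± 0.25, adjusted P = 0.000313). *Ndrg2*, a protein of astrocyte processes, had 1218, 885, 1009, 1204 and 819 CPM in WT and 356, 327, 324, 297 and 289 CPM in SCA7 libraries (-1.70 ± 0.20, adjusted P = 0.000313). *Agt*, angiotensinogen, which in the cord is made by astrocytes, had 335, 193, 186, 198 and 234 CPM against 23.2, 43.6, 37.3, 65.8 and 63.5 CPM (-2.17 ± 0.28, adjusted P = 0.00048). In each of these 3 genes the lowest WT library stood above the highest SCA7 library, as the choice of leading genes required. *Btbd17*, a sparse gene, was called at -2.96 (adjusted P = 0.00534). *Sparcl1*, a matrix protein of astrocytes, was at 1294 to 3085 CPM in WT and 1326 to 1591 CPM in SCA7 libraries and was not called (-0.64, adjusted P = 0.173), and neither were the other 11 members.

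The summed level of the 23 astrocyte genes was 14004, 12246, 11476, 9666 and 11327 CPM in WT and 5854, 5826, 4942, 5937 and 5828 CPM in SCA7 libraries. It did not overlap between genotypes, and the deep and the shallow SCA7 libraries lay close together. In RNA from whole tissue, fewer cells of a type and less RNA per cell cannot be told apart, and this holds for every list of cell markers here.

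Uptake and ion transport are tasks of astrocytes. *Glul*, glutamine synthetase, which converts glutamate taken up from synapses, had 2281, 1800.3, 1619, 1671 and 1840.2 CPM in WT and 750.1, 655, 523, 814 and 759 CPM in SCA7 libraries (-1.39 ± 0.21, adjusted P = 0.00137). The genotypes were separate. Of 12 genes of glutamate, glycine and GABA transport 5 were called lower (median -0.78), among them *Slc6a9*, glycine transporter 1, at 293, 427, 500.1, 782 and 310.5 CPM in WT and 139, 218, 87.1, 119.7 and 118 CPM in SCA7 libraries (-1.76 ± 0.31, adjusted P = 0.00361). *Slc1a2*, the main glutamate transporter, was at 1230.1, 1312, 1932, 305 and 2299 CPM against 217, 218, 268, 676 and 716 CPM (-1.72 ± 0.46, adjusted P = 0.0401), with WT replicate 4 inside the SCA7 range. Its call did not survive leaving out WT replicate 2 or 3, nor SCA7 replicate 1, 2, 3 or 5 (adjusted P from 0.0551 to 0.0972).

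*Slc1a3*, the other astrocyte glutamate transporter, had 86.8, 203, 186, 153 and 108 CPM in WT and 116, 116, 124, 104 and 108 CPM in SCA7 libraries and was not called (-0.30 ± 0.26, adjusted P = 0.63). Its direction turned with library totals and in the deep libraries alone. *Slc7a10*, which carries serine and glycine, was at -1.45 (adjusted P = 0.0163), with an adjusted P of 0.0803 without SCA7 replicate 5. *Slc7a11*, the cystine-glutamate exchanger, was at -2.87 (adjusted P = 0.0212) and lost without SCA7 replicate 4 or 5 (adjusted P up to 0.122), with a log2 fold change of -1.41 without WT replicate 5. Of 11 potassium channel and sodium pump genes 5 were called lower (median -0.84). These included *Kcnj10*, the inward rectifier of astrocytes (-1.39 ± 0.29, adjusted P = 0.0114), *Fxyd1*, a pump regulator (-1.92, adjusted P = 0.00883), and *Kcnk13*, a leak channel (-2.29, adjusted P = 0.0126), of which *Fxyd1* and *Kcnk13* were lost without SCA7 replicate 5 and *Kcnk13* without SCA7 replicate 4 (adjusted P from 0.0727 to 0.0987).

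No gene of the pan-neuronal, motor, inhibitory and excitatory neuron lists was called. The 13 pan-neuronal genes had a median of -0.06 (0.24 with library totals), the 10 motor neuron genes -0.14, the 7 inhibitory genes 0.14 and the 4 excitatory genes 0.13. *Nefm*, the medium neurofilament of large axons, was at 3678, 2756, 3755, 1743 and 2939 CPM in WT and 2738, 1746, 1481, 1346 and 1232 CPM in SCA7 libraries (-0.81 ± 0.28, adjusted P = 0.12), with overlapping genotypes. *Slc17a6*, the vesicular glutamate transporter, was at 75.3 to 325 CPM against 185 to 386 CPM (0.40, adjusted P = 0.639). Only 2 of the 10 motor neuron genes were well counted, so a change in them was hard to detect at this depth. Of 4 genes of dorsal root ganglion neurons tested 1 was called higher, *Scn11a*, on 3 counts in all WT and 26 in all SCA7 libraries, a ratio of 7.31 with a 95% counting interval of 2.24 to 37.7. That call was lost without WT replicate 5 or SCA7 replicate 5 (adjusted P up to 0.0894). It was also lost with limma-voom (adjusted P = 0.644), the bias-adjusted edgeR test (0.156) and depth class as a block (0.0974). *Scn11a* reached the 10 counts of the filter in SCA7 libraries only, so the filter favoured a higher call. *Avil*, the member with the highest CPM, went the other way and was not called (-2.16, adjusted P = 0.055), and the list median was 0.62.

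**Figure D2:**
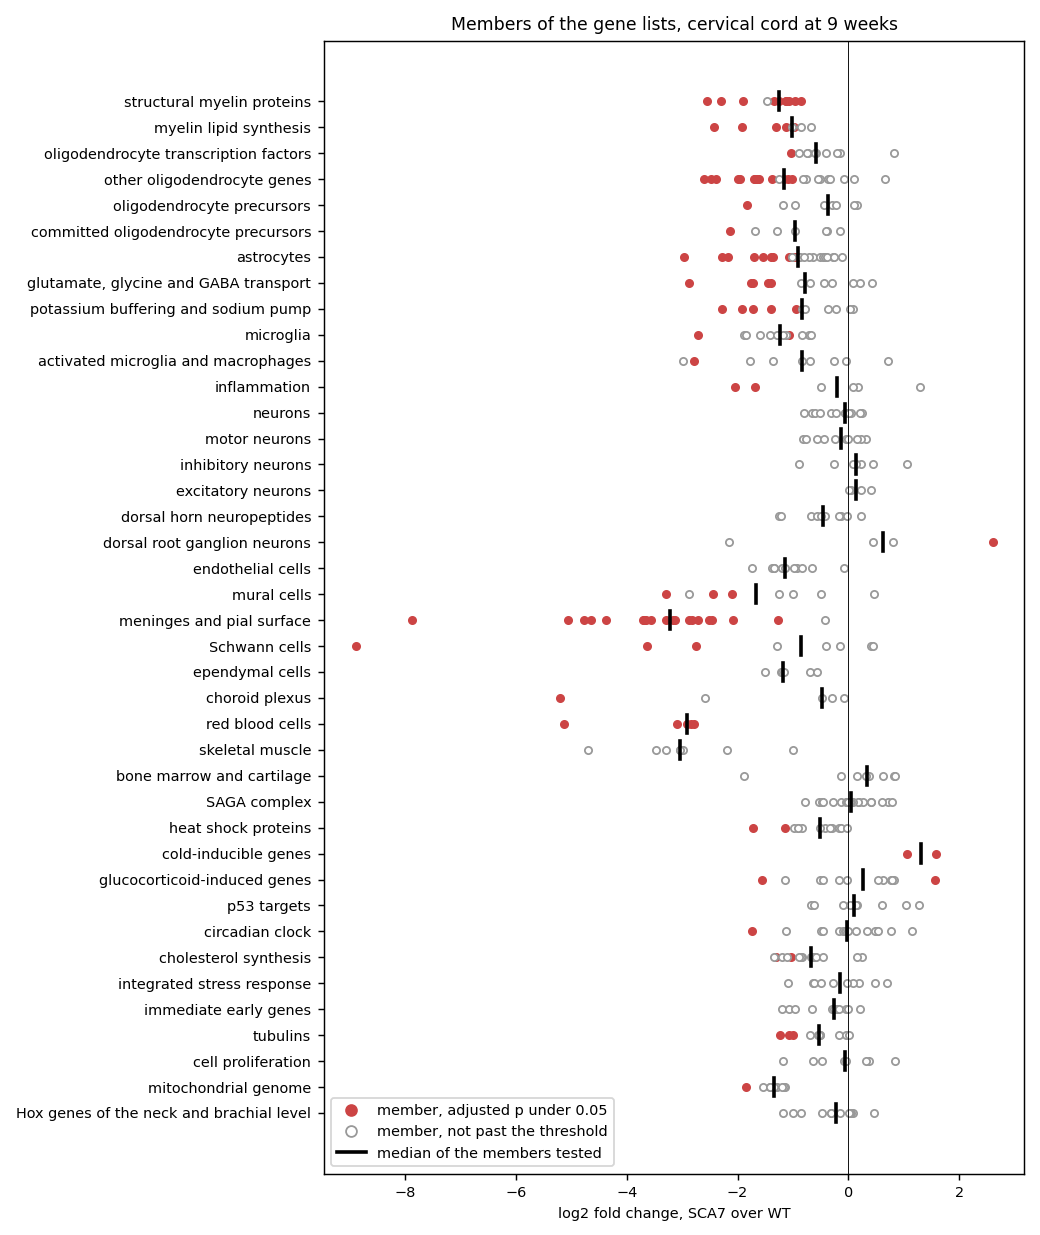
Log2 fold change (SCA7 over WT) of each tested member of 40 gene lists, one list per line, with filled points for called members and bars for the list median. The myelin and astrocyte lists lie left of 0, the neuron lists around 0, and 19 of 20 meningeal genes are called on the left.

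The genes that rose were led by *Polr2a*, the largest subunit of RNA polymerase II. It had 57.3, 61.03, 42.4, 71.9 and 70.5 CPM in WT and 201, 225, 143, 114 and 151 CPM in SCA7 libraries, so that the lowest SCA7 library stood above the highest WT library (1.40 ± 0.25, adjusted P = 0.00431). With limma-voom its adjusted P was 0.0676. *Rbm3* and *Cirbp* encode RNA-binding proteins that rise when body temperature falls. *Rbm3* had 57.4, 40.7, 76.3, 71.9 and 53.8 CPM in WT and 124, 189, 305, 139.7 and 137 CPM in SCA7 libraries (1.57 ± 0.29, adjusted P = 0.00481). *Cirbp* had 78.6, 50.9, 50.9, 98.8 and 65.1 CPM against 139, 175, 137, 137 and 144 CPM (1.06 ± 0.23, adjusted P = 0.0124), with SCA7 replicate 2 above the other SCA7 libraries, and its adjusted P was 0.0614 without SCA7 replicate 5. Both genes of the cold-inducible list were thus called higher (1.52% of all genes were). The list holds only these leading genes and was chosen with earlier results of these data known, so it adds no separate support.

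*Snhg11*, a host RNA of small nucleolar RNAs, had 1447, 1566, 1449, 1653 and 1328 CPM in WT and 2034, 2989, 3579, 2694 and 2809 CPM in SCA7 libraries (0.92 ± 0.21, adjusted P = 0.018), and 0.0859 without SCA7 replicate 5. *Tsc1*, the hamartin gene that restrains growth signalling, was at 50.9 to 102 CPM in WT and 129 to 224 CPM in SCA7 libraries (0.90, adjusted P = 0.0406). *Bclaf1*, a nuclear protein linked to RNA processing, was at 40.7 to 100.5 CPM against 108 to 171 CPM (0.96, adjusted P = 0.0408). *Ralgps1*, an exchange factor of Ral proteins, was at 26.95 to 71.2 CPM against 102 to 124 CPM (1.02, adjusted P = 0.0192).

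The others with separate genotypes were *Jade2* (0.99), *Leng8* (0.72) and *AI480526* (0.90), with adjusted P from 0.0314 to 0.0407. *Zkscan16*, a zinc finger gene (1.30, adjusted P = 0.0147), and *Cstf2*, a cleavage stimulation factor of mRNA ends (0.91, adjusted P = 0.0353), were called with overlapping genotypes and are named after their values were seen. These calls were near the threshold. *Tsc1* was lost in 9 of the 10 fits that left out 1 library, all but the one without WT replicate 5 (adjusted P from 0.0509). *Cstf2* and *Leng8* were lost in 8, *Bclaf1* in 7, *AI480526* and *Jade2* in 5, *Ralgps1* in 2 and *Zkscan16* in 1, with adjusted P up to 0.207, and all of these had SCA7 replicate 5 among the libraries that ended the call.

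Immune genes were mostly sparse, and where called they were lower. Of 12 microglial genes 2 were called, *Cx3cr1*, the fractalkine receptor, at 42.1, 20.3, 67.8, 26.95 and 28.00 CPM in WT and 7.73, 0, 0, 6.62 and 5.67 CPM in SCA7 libraries (-2.72 ± 0.46, adjusted P = 0.00309), and *Ctss*, a lysosomal protease (-1.07, adjusted P = 0.0302). The call of *Ctss* was lost without WT replicate 2 or any one SCA7 replicate (adjusted P from 0.0508 to 0.109). The median of the list was -1.24. Of 9 genes of activated microglia and macrophages *Lyz2* was called (-2.79, adjusted P = 0.0296), highest in WT replicates 4 and 5, and lost without SCA7 replicate 1, 4 or 5 (adjusted P up to 0.134), with a log2 fold change of -1.38 without WT replicate 5, while *Apoe* was at -0.84 (adjusted P = 0.0756).

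Complement genes *C3* and *C4b* were the called members of the inflammation list, of which 6 of 10 genes were tested. *C3* had 75.2, 71.2, 67.8, 44.9 and 84.9 CPM in WT and 0, 36.4, 6.22, 17.5 and 19.5 CPM in SCA7 libraries (-2.05 ± 0.38, adjusted P = 0.00523). *C4b* was at 160.3, 91.5, 42.4, 198 and 95.3 CPM against 38.7, 14.5, 6.22, 49.1 and 45.8 CPM (-1.69 ± 0.40, adjusted P = 0.023), and was lost without WT replicate 1 or SCA7 replicate 5 (adjusted P up to 0.0668). The cytokines *Tnf* and *Il1b* had at most 6 counts in any library and were not tested. *Nos2* and *Arg1*, enzymes of opposite macrophage states, were at most 0.857 CPM in any library and not called (adjusted P = 0.601 and 0.896).

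Markers of the meninges were called lower almost throughout, and the size of their change depended on the WT libraries. Of 20 genes of meninges and the pial surface 19 were called lower, with a median of -3.23. Their summed level was 1167, 804, 2187, 7456 and 3654 CPM in WT and 565, 720.1, 542, 806 and 566 CPM in SCA7 libraries. WT replicates 4, 5 and 3 were high, and WT replicates 1 and 2 stood close to the SCA7 libraries, WT replicate 2 within their range. Without WT replicates 4 and 5 the median was -1.42 with 12 genes called lower, and DESeq2 called 9 lower. *Igf2*, a growth factor made by the meninges, had 64.2, 30.5, 212, 791 and 375 CPM in WT and 23.2, 7.27, 12.4, 15.01 and 12.5 CPM in SCA7 libraries (-4.38 ± 0.70, adjusted P = 0.00209). *Ptgds*, prostaglandin D synthase, had 822, 610.3, 1390.0, 5435 and 2398 CPM against 425, 582, 429, 642 and 434 CPM (-2.08 ± 0.47, adjusted P = 0.0167), and was lost without SCA7 replicate 1 or 5 (adjusted P up to 0.0675). *Prg4*, lubricin, was counted 31, 0, 1, 4 and 1673 times in WT and 0, 0, 0, 3 and 3 times in SCA7 libraries, mostly in WT replicate 5 (-7.87, adjusted P = 0.00209, and -4.20 without that library). Without WT replicate 4 *Igf2* was at -3.72 and *Ptgds* at -1.38. The part of meningeal tissue in the other results was not tested.

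Called genes of nerve and blood were lower as well. Of 8 Schwann cell genes 3 were called lower, among which *Egr2* was counted 17, 0, 0, 0 and 34 times in WT and 0, 0, 0, 5 and 3 times in SCA7 libraries (-2.75, adjusted P = 0.000797) and *Prx* 45, 0, 0, 3 and 663 against 0, 0, 1, 25 and 29 times (-3.63, adjusted P = 0.0213). *Egr2* had no count in any shallow library, and its call was lost with limma-voom (adjusted P = 0.109) and the bias-adjusted edgeR test (adjusted P = 0.0788). *Prx* was lost without WT replicate 5 or SCA7 replicate 4 or 5 (adjusted P up to 0.183), and its log2 fold change was -1.38 without WT replicate 5. All 5 red blood cell genes were called lower (median -2.92, -3.18 without WT replicates 4 and 5). *Hbb-bs*, a beta globin, had 238, 40.7, 50.9, 117 and 126 CPM in WT and 7.73, 29.1, 0, 8.75 and 28.4 CPM in SCA7 libraries (-2.92 ± 0.53, adjusted P = 0.00466). *Hba-a2* (-5.12), *Hbb-bt* (-3.10) and *Alas2*, a heme synthesis enzyme (-2.83), had adjusted P from 0.00135 to 0.018, of which *Alas2* was lost without SCA7 replicate 4 (adjusted P = 0.147). Without WT replicate 1 *Hba-a2* was at -3.79, and without SCA7 replicate 5 *Hbb-bs* was at -3.65, *Hbb-bt* at -4.02 and *Alas2* at -3.86. The globin genes have near-identical copies, so their counts can be shared between copies.

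Of the vessel genes, only mural cell genes included calls. Of 8 mural cell genes 3 were called lower, *Vtn* (-2.09, adjusted P = 0.00901) and the contractile genes *Tagln* (-3.28, adjusted P = 0.0125) and *Myh11* (-2.44, adjusted P = 0.0201). *Tagln* and *Myh11* were lost without SCA7 replicate 4 or 5 (adjusted P from 0.0652 to 0.143). *Tagln* was at -2.58 without WT replicate 4 and *Myh11* at -1.83 without WT replicate 1. *Rgs5*, a pericyte gene, was at -1.26 (adjusted P = 0.067). None of 11 endothelial genes was called (median -1.14), with *Slc2a1*, the glucose transporter of the blood-brain barrier, at -0.92 (adjusted P = 0.0906). Of 5 choroid plexus genes *Kcnj13* was called (-5.20, adjusted P = 0.0262), lost without SCA7 replicate 4 or 5, and it was counted 1, 0, 3, 0 and 269 times in WT and 0, 0, 0, 3 and 5 times in SCA7 libraries and was too low to be tested without WT replicate 5. It passed the filter through that library alone, which favoured a lower call. None of 6 ependymal, 8 skeletal muscle and 8 tested bone marrow and cartilage genes was called (medians -1.18, -3.04 and 0.34), and none of them was well counted. Skeletal muscle genes summed to 759 CPM in WT replicate 1 and to at most 102 CPM in any other library.

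**Figure D3:**
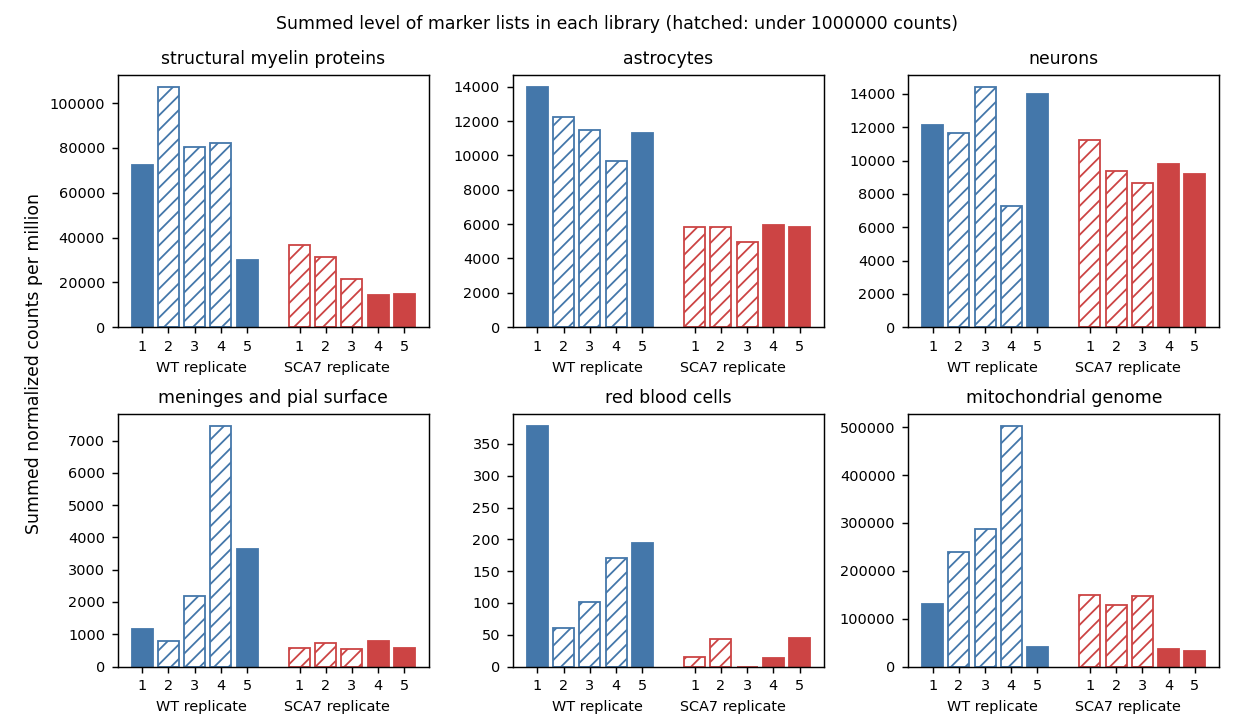
Summed normalized CPM of 6 marker lists in each library, with WT in blue, SCA7 in red and shallow libraries hatched. Astrocyte sums separate the genotypes and neuron sums overlap. Structural myelin sums overlap as well, with WT replicate 5 at 29867 CPM against up to 36641 CPM in SCA7 libraries. Meningeal and mitochondrial sums are led by WT replicate 4, at 7456 and 502943 CPM.

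Of the mitochondrial genome's 9 listed genes 1 was called. The 9 genes summed to 129850.0, 239485, 286464, 502943 and 41224 CPM in WT and 149396, 128406, 146868, 35706 and 32749 CPM in SCA7 libraries, with the shallow libraries above the deep ones in each genotype. The share of mitochondrial counts was 19.95% ± 12.1 (SD, n = 5) in WT and 10.96% ± 6.20 (SD, n = 5) in SCA7 libraries (exact permutation test, two-sided, P = 0.190, adjusted over 4 library features P = 0.254). *ND2*, a complex I subunit, was called (-1.85 ± 0.37, adjusted P = 0.00733), at 13409, 12521, 15959, 23690.0 and 4682 CPM in WT and 5228, 4102, 4687, 2927 and 2569 CPM in SCA7 libraries, with WT replicate 5 inside the SCA7 range, while *COX1* was not (-1.16, adjusted P = 0.363). Leaving the mitochondrial genes out before normalization gave 92 lower and 14 higher well counted calls.

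The gene with the expanded repeat and its complex did not pass the test. *Atxn7* had 27.4, 20.3, 59.3, 62.9 and 30.5 CPM in WT and 61.9, 58.2, 24.9, 42.99 and 51.6 CPM in SCA7 libraries, with overlapping genotypes (0.41 ± 0.34, adjusted P = 0.607). Its counts in the shallow libraries were between 2 and 8. The counts do not separate the alleles, so they do not check the genotype labels. None of 20 tested SAGA genes was called (median 0.04).

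Among response pathways, 2 of 13 heat shock genes were called lower: *Cryab*, a small heat shock protein of glia, at 448, 163, 136, 287 and 222 CPM in WT and 30.9, 65.5, 68.5, 112 and 84.96 CPM in SCA7 libraries (-1.72 ± 0.34, adjusted P = 0.00728), and *Hsph1* (-1.14, adjusted P = 0.0304), whose call ended on leaving out WT replicates 2 or 3, or SCA7 replicates 2, 3 or 5, 1 at a time (adjusted P up to 0.101). Of 12 glucocorticoid-induced genes 1 was called in each direction. *Hif3a*, a hypoxia-inducible factor subunit, was higher at 20.02, 10.2, 16.95, 17.97 and 20.6 CPM in WT and 30.9, 72.7, 56.02, 58.03 and 57.4 CPM in SCA7 libraries (1.55 ± 0.29, adjusted P = 0.00513). *Mt1*, metallothionein 1, was lower (-1.57 ± 0.35, adjusted P = 0.0154, and 0.0663 without SCA7 replicate 5). Of 16 clock genes *Dbp*, an output factor of the clock, was lower at 117, 50.9, 76.3, 117 and 80.4 CPM against 30.9, 21.8, 31.1, 27.2 and 26.3 CPM (-1.75 ± 0.27, adjusted P = 0.00189), with separate genotypes. The hour of collection is not given in the labels.

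Cholesterol synthesis had 2 of 17 genes called lower (median -0.67): *Hmgcs1*, an early enzyme of the pathway (-1.30 ± 0.25, adjusted P = 0.0069), and *Msmo1* (-1.03, adjusted P = 0.0114, and 0.0602 without SCA7 replicate 5). Of 11 tubulins 3 were called lower. *Tubb4a*, a beta tubulin of oligodendrocytes and neurons, had 1699.9, 1393, 1195, 1294 and 1146 CPM in WT and 588, 546, 473, 673 and 569 CPM in SCA7 libraries (-1.24 ± 0.20, adjusted P = 0.00223). *Tuba1a* was at -1.07 ± 0.19 (adjusted P = 0.00398) and *Tubb2b* at -0.99 (adjusted P = 0.0326), the latter lost in 7 of the 10 fits without 1 library (adjusted P up to 0.128). Both have close paralogs with which reads could be shared. No gene of the p53 (10 tested), integrated stress response (10), immediate early (12, with *Jun* at -0.65) and proliferation lists (8, with *Pcna* at 0.37) was called, nor of the dorsal horn neuropeptides (10).

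Sparse genes made up most of the calls, and their counts and leading members are given here, apart from the well counted genes. *Gal3st1*, *C1ql1*, *Gpr17*, *Btbd17*, *Slc7a10*, *Slc7a11*, *Fxyd1*, *Kcnk13*, *Scn11a*, *Cx3cr1*, *Ctss*, *Lyz2*, *C3* and *C4b*, named with their lists above, are sparse. So are *Vtn*, *Tagln*, *Myh11*, *Prg4*, *Egr2*, *Prx*, *Kcnj13*, *Hif3a*, *Dbp*, *Msmo1*, *Tubb2b* and the red blood cell genes named. Of 16852 sparse genes 875 were called (5.19%), 595 lower (3.53%) and 280 higher (1.66%), but 733 of them had a mean under 1 count in the shallow libraries, so the shallow libraries said little about them. In 85 calls, 75 lower and 10 higher, all libraries of the genotypes were separate, as in 1.85% of all sparse genes. The leading sparse genes below were chosen from these calls by smallest adjusted P, so their lack of overlap follows from the choice. DESeq2 called 98 sparse genes lower and 4 higher. Without SCA7 replicate 5 the counts were 140 lower and 69 higher, without SCA7 replicate 4 they were 241 and 189, without WT replicate 1 they were 837 and 572, and without WT replicate 5 they were 1592 and 1081.

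The leading lower sparse genes were *Il33*, a nuclear cytokine that oligodendrocytes release on injury, at 102, 112, 93.2, 53.9 and 134 CPM in WT and 23.2, 29.1, 18.7, 20.4 and 16.2 CPM in SCA7 libraries (-2.38 ± 0.29, adjusted P = 0.000449), and *Serpind1*, heparin cofactor II, counted 317, 3, 1, 6 and 1143 times in WT and 0, 0, 0, 40 and 37 times in SCA7 libraries (-4.64 ± 0.59, adjusted P = 0.00048, and -3.72 without WT replicate 5). *Myoc*, myocilin, was at 58.4, 20.3, 119, 35.9 and 69.03 CPM in WT and 7.73, 0, 0, 5.63 and 4.49 CPM in SCA7 libraries (-3.71 ± 0.47, adjusted P = 0.00048). *Aebp1*, a matrix protein of fibroblasts (-2.46 ± 0.37, adjusted P = 0.00148), and *Serpinb1a*, a protease inhibitor (-2.46 ± 0.38, adjusted P = 0.00176), followed. *Myoc* and *Aebp1* are also on the meningeal list.

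The leading higher sparse genes included *Nox4*, an NADPH oxidase, counted 20, 0, 0, 0 and 34 times in WT and 1, 2, 1, 150 and 203 times in SCA7 libraries (2.71 ± 0.46, adjusted P = 0.00319). It was seen in every SCA7 library and in no shallow WT library, as the choice of genes with separate genotypes required. *Serpina3c* (2.49 ± 0.51, adjusted P = 0.0097) had the same pattern, with 1.78 without WT replicate 1 and 3.48 without WT replicate 5. Neither was called by DESeq2 (adjusted P = 0.312 and 0.649). *Abca1*, a cholesterol exporter, was at 19.4, 50.9, 42.4, 17.97 and 45.4 CPM in WT and 101, 72.7, 87.1, 97.8 and 93.8 CPM in SCA7 libraries (1.44 ± 0.31, adjusted P = 0.0118, and 0.0676 without SCA7 replicate 5). *Kdm3a*, a histone demethylase induced by low oxygen, was at 8.98 to 40.7 CPM against 65.6 to 108 CPM (1.34 ± 0.30, adjusted P = 0.0149, and 0.0614 without SCA7 replicate 5).

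The depth classes allowed the change to be measured in separate mice. In the 6 shallow libraries alone, 54 of 4370 genes were called (1.24%), 52 lower and 2 higher. All 54 had the same direction in the 4 deep libraries, which that fit did not use, and 52 of them had an unadjusted P under 0.05 there (96.3%). Over all 2391 well counted genes in both fits, 73.7% had the same direction and 11.7% also such a P. The median of the 54 was -1.74 in the shallow and -1.39 in the deep libraries. In the deep libraries alone, with 2 of each genotype, edgeR called 0 of 19218 genes, with 2978 at an unadjusted P under 0.05, so no call of this report is past the threshold in that fit. With depth class as a block 157 well counted genes were called lower and 23 higher, all 99 calls among them.

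**Figure D4:**
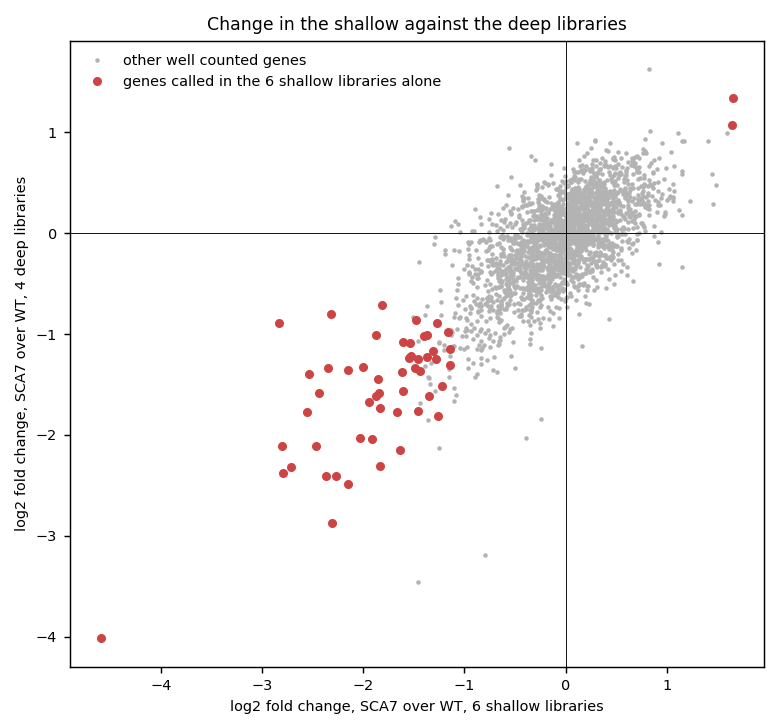
Log2 fold change (SCA7 over WT) of well counted genes in the 4 deep against the 6 shallow libraries, with the 54 genes called in the shallow libraries alone in red. All 54 red points have the same sign on both axes.

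Of the 99 well counted calls, 11 were past the threshold in 23 of 24 alternatives, the exception being the deep libraries alone. All 11 were lower, and *Cldn11*, *Gfap*, *Glul*, *Mobp*, *Ndrg2*, *Qdpr*, *Slc6a9*, *Trp53inp2* and *Tubb4a* were among them. *Qdpr*, which regenerates tetrahydrobiopterin, had 1032, 427, 305, 575 and 444 CPM in WT and 85.1, 102, 137, 189 and 164 CPM in SCA7 libraries (-2.001 ± 0.32, adjusted P = 0.00209), and *Trp53inp2*, an autophagy protein, was at 453 to 1335 CPM against 193 to 371 CPM (-1.51 ± 0.29, adjusted P = 0.00642). Both were chosen after their values were seen. None of the 99 changed direction in any alternative.

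The medulla of the same 10 mice gave the nearest comparison. Of the 99 well counted calls of the cervical cord, 93 had the same direction in the medulla (93.9%, against 58.3% of all 2411 well counted genes), and 45 were called there in that direction, where 6.97% of all genes were called. The median of the 87 lower genes was -1.22 in the cervical cord and -0.78 in the medulla, and that of the 12 higher genes 0.98 and 0.57. The difference between tissues, tested with the mouse as a block, was called for 551 of 19838 genes (2.78%), but for 2 of the 2162 genes well counted in both tissues. *Gfap* had a larger decrease in the cervical cord in this fit, with -2.28 ± 0.25 there and -1.07 ± 0.23 in the medulla (difference -1.16 ± 0.28, adjusted P = 0.0244). *Fth1*, ferritin heavy chain, whose counts may be shared with near-identical copies, was at -1.50 ± 0.36 in the cervical cord and 0.37 ± 0.45 in the medulla (difference -1.41 ± 0.37, adjusted P = 0.0415). The difference for *Gfap* was not called without the mouse block (adjusted P = 0.130), with at least 10 counts in every library (0.544), with library totals (0.630), or when both libraries of WT mouse 1, 4 or 5, or of SCA7 mouse 4 or 5, were left out (0.0502 to 0.204), and DESeq2 called it (0.00892). That for *Fth1* was not called in the first 3 of these fits (adjusted P from 0.275), by DESeq2 (0.233), or on leaving out WT mouse 1 or 4, or SCA7 mouse 3, 4 or 5 (0.0733 to 0.202). The call of *Fth1* in the cervical cord was lost without SCA7 replicate 3, 4 or 5 (adjusted P up to 0.113). Without the mouse of WT replicate 5 the count of differences was 11, without those of SCA7 replicates 4 and 5 it was 289 and 282, and DESeq2 called 14.

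Of the leading well counted genes, no other had a called difference between tissues. *Ugt8a* stood at -2.43 in the cervical cord and -2.36 ± 0.33 in the medulla, *Glul* at -1.39 and -1.45 ± 0.19, *Rbm3* at 1.57 and 1.68 ± 0.28, and *Polr2a* at 1.40 and 1.23 ± 0.21. *Mobp* (-2.31 and -1.15 ± 0.35) had a difference in estimate that was not called (adjusted P = 0.22). *Sox10* was at -1.04 and 0.02 ± 0.25 (adjusted P = 0.145). The meningeal list had a median of 0.34 in the medulla and the mitochondrial list 1.53, of the opposite sign to the cervical cord. At 5 weeks the cervical cord had 2 libraries of each genotype, where 0.728% of all genes were called. Totals of these libraries ran from 133861 to 29571748 counts, so depth limits this comparison too. Of the 99 genes 66 had the same direction there (66.7%, against 49.5% of all well counted genes) and 3 were called in it, with a median of -0.25 for the 87 lower and 0.02 for the 12 higher genes. Over all 17162 genes tested at 5 weeks the median was -0.29, so that of the 87 lower genes was no lower than the rest.

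**Figure D5:**
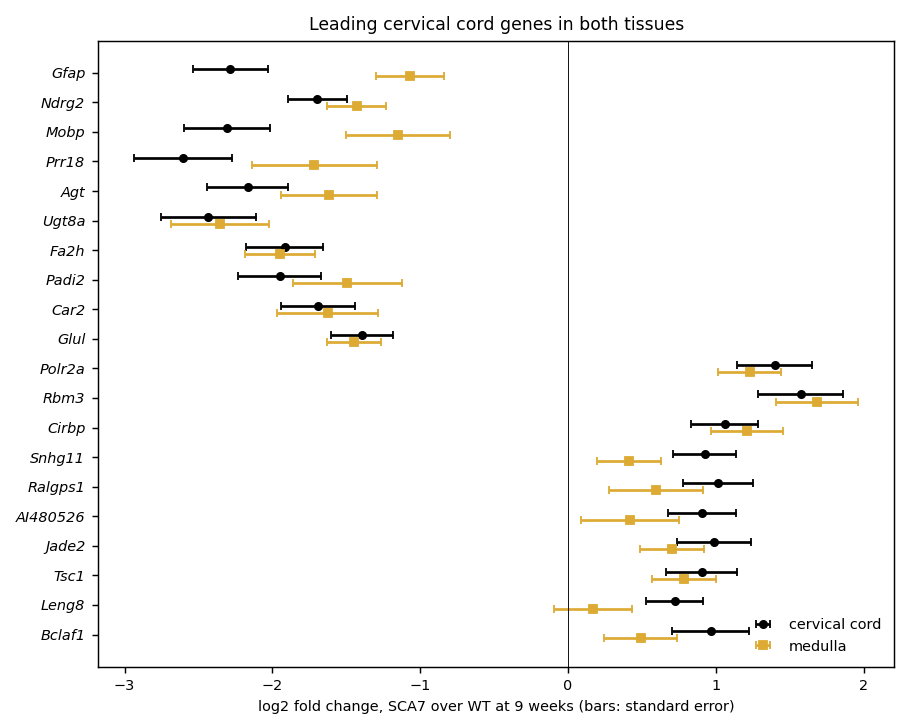
Log2 fold change (SCA7 over WT at 9 weeks) with its standard error for 20 leading cervical cord genes in the cervical cord (circles) and the medulla (squares). All 20 genes have the same direction in both tissues, and of these the difference between tissues was called for *Gfap*.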

How the data were processed

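RNA-seq libraries of cervical cord tissue from 9-week mice, 5 WT and 5 SCA7, were analysed, with the medulla of the same mice and 4 younger cervical libraries for comparison. The authors deposited raw read counts per gene symbol (35976 symbols in each of 35 files), from uniquely mapped reads on mm10, without normalization. The aligner and counter are not given in the sources used here, nor whether strand was used. Groups came from titles. Of the symbols, 32501 were found in RefSeq GRCm38.p6.

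From the counts, R 4.3.3 with edgeR 4.0.16 (TMM, quasi-likelihood test with the settings of earlier releases, at least 10 counts in at least 1 library), limma 3.58.1 and DESeq2 1.42.0 gave CPM, log2 fold changes and P values adjusted by Benjamini-Hochberg over all genes tested. The study used DESeq2, an alternative here. Standard errors came from the quasi-likelihood F value. Limits of a count of 0 use 3 counts. Scripts were tested on simulated data. No replicates differed by less than counting noise.

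The members, gene lists and rules were chosen with earlier results of these data known. Genes named are *Atxn7* and those measured by qPCR in the study, the 12 lower and up to 12 higher well counted and 5 lower and 5 higher sparse calls with separate genotypes and the smallest adjusted P, of each of 41 lists the member with the highest CPM and up to 4 calls, and up to 3 per direction for the difference between tissues. Of 120 genes, 12 highest-CPM members that were not called and whose direction differed between alternatives were left out, and the results of 4 genes are not reported here. Alternatives were DESeq2, limma-voom with sample weights, the bias-adjusted edgeR test, DESeq2 size factors, library totals, other filters, each depth class alone, depth or replicate number as a block, thinning to the smallest total (random seed 20240718) and leaving out each library. Leaving out WT replicates 4 and 5 together, and the mitochondrial genes, was chosen after seeing the data.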

Additional observations from a re-analysis of the deposited data

Results flagged for a closer look

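In 16 of 204 groups of 5 libraries examined over the named genes, 1 library lay far from the other 4 by Dixon's criterion, which chance meets in about 1 of 20 groups. Each value is normalized CPM and is followed by that of the nearest other library of the group. In SCA7 replicate 1, *Cstf2* was at 101 against 162. In SCA7 replicate 2, *Padi2* was at 21.8 against 43.6, *Cirbp* was at 175 against 144, *AI480526* was at 116 against 93.4, *Leng8* was at 596 against 448, *Hba-a2* was at 7.27 against 0.4. In SCA7 replicate 3, *Avil* was at 6.22 against 0.306, *Prx* was at 6.22 against 0.69. In WT replicate 2, *Ctss* was at 142 against 85, *Foxj1* was at 20.3 against 42.4. In WT replicate 3, *Kcnj13* was at 25.4 against 6.79. In WT replicate 4, *Kcnk13* was at 0 against 25.4, *Apoe* was at 4150.5 against 2390.3, *Avil* was at 8.98 against 1.71, *Tagln* was at 89.8 against 13.7. In WT replicate 5, *Cstf2* was at 116 against 76.4. The values of *Avil* in both libraries named, of *Prx* and of *Hba-a2* are each 1 count in a shallow library, under the 18.7 to 26.8 CPM that a count of 0 allows there.

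The SCA7 change differed between cervical cord and medulla, by the interaction test of edgeR with the mouse as a block, for 17 of the 102 named genes. Over all genes tested, 551 of 19838 differed in this way (2.78%). Named genes were largely chosen by their calls in the cervical cord, and all 17 were called lower there. The log2 difference, cervical cord minus medulla, was negative for all 17, a sign that this choice favoured. Among glial, immune and iron genes it was -1.16 for *Gfap* (adjusted P = 0.0244), -2.42 for *Slc7a11* (adjusted P = 4.59e-06), -3.48 for *Lyz2* (adjusted P = 1.30e-05), -1.30 for *C4b* (adjusted P = 0.00885), -1.05 for *C3* (adjusted P = 0.0139), -1.41 for *Fth1* (adjusted P = 0.0415). Among the leading sparse genes it was -1.91 for *Myoc* (adjusted P = 0.000569), -4.45 for *Serpind1* (adjusted P = 1.23e-06), -2.88 for *Aebp1* (adjusted P = 4.24e-06). Among vessel and meningeal genes it was -2.53 for *Vtn* (adjusted P = 6.25e-06), -4.50 for *Tagln* (adjusted P = 2.07e-08), -2.56 for *Myh11* (adjusted P = 0.00117), -9.31 for *Prg4* (adjusted P = 4.06e-09), -5.07 for *Igf2* (adjusted P = 8.55e-05). Among Schwann cell and choroid plexus genes it was -4.69 for *Egr2* (adjusted P = 0.000302), -6.56 for *Prx* (adjusted P = 0.00035), -6.25 for *Kcnj13* (adjusted P = 9.48e-06). Of these, *Gfap* and *Fth1* were well counted in both tissues, and the others were not. With at least 10 counts in every library, neither of these 2 differences was called (adjusted P = 0.544 and 0.634).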

How the results depend on the processing

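Well counted genes called lower numbered 87, and 141 with limma-voom, 25 with library totals, 48 with at least 10 counts in every library, 45 in the shallow and 0 in the deep libraries alone, 157 with depth as a block, 50 after thinning, 131 without WT replicates 4 and 5, and 40 to 140 with 1 library left out. Those called higher numbered 12, and 6 with DESeq2, 30 with limma-voom, 5 with the bias-adjusted test, 33 with library totals, 2 in the shallow and 0 in the deep libraries alone, 23 with depth as a block, 1 after thinning, 44 without WT replicates 4 and 5, and 2 to 59 with 1 library left out. Sparse genes called lower numbered 595, and 98 with DESeq2, 329 with limma-voom, 184 with the bias-adjusted test, 359 with library totals, 314 without a filter, 7 in the shallow and 0 in the deep libraries alone, 23 after thinning, 1612 without WT replicates 4 and 5, and 140 to 1592 with 1 library left out. Those called higher numbered 280, and 4 with DESeq2, 20 with limma-voom, 21 with the bias-adjusted test, 435 with library totals, 157 without a filter, 0 in the shallow and 0 in the deep libraries alone, 114 with depth as a block, 2 after thinning, 1115 without WT replicates 4 and 5, and 69 to 1081 with 1 library left out. Calls that were lower made up 70.0% in the report and 45.1% with library totals. Of 80 named calls, 20 were lost with library totals, 28 after thinning, 28 in the shallow libraries alone and 17 with DESeq2. Differences between tissues numbered 551, and 100 without the mouse block, 14 with DESeq2, 0 with at least 10 counts in every library, and 11 to 677 with 1 mouse left out (289 without SCA7 replicate 4, 282 without SCA7 replicate 5). The causes were not tested, apart from fewer libraries or genes in some fits.

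Replicate numbers did not pair the samples: same-numbered WT and SCA7 libraries correlated between -0.68 and 0.91 in their deviations, and 1 of 5 matched its own number best. With a replicate block 106 well counted genes were called lower, 19 higher, and 551 and 441 sparse genes. Directions turned for *Slc1a3* (0.044 with library totals, 0.13 in the deep libraries), *Nos2* (0.38 with the replicate block, -0.94 to 0.24 with 1 library left out, the last without WT replicate 1), *Arg1* (-0.28 with DESeq2, -0.70 with limma-voom) and *Scn11a* (-0.020 with DESeq2), and for no other named gene. Depth limits all results on sparse genes, since a count of 0 in a shallow library allows 18.7 to 26.8 CPM.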
